A study of Mus musculus with 6 samples.

Results

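The genes described here are the FoxO transcription factors and the muscle atrophy ubiquitin ligases, with partners that act beside them: Foxo1, Foxo3, Foxo4, Fbxo32, Trim63, Fbxo30, Fbxo40, Klf15, Mul1 and Mtfp1. They were chosen by name, and every array probe whose RefSeq accession belongs to one of them was taken, which gave 14 probes for 10 genes out of 20659 genes named on the array. The samples were 6 RNA preparations of C2C12, an immortalised mouse myoblast line whose cells fuse into myotubes on differentiation. For 3 samples lncMGPF, a long noncoding RNA, was knocked down with an siRNA (si-lncMGPF), and 3 received a control siRNA (si-NC). Both groups were taken after 2 days of differentiation and carry no other labelled treatment. All values therefore describe siRNA-transfected cells of 1 line, and since nothing states that replicates came from separate cultures, the p-values speak only of the spread among these 6 samples, which may be technical.

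FoxO factors switch on a programme that breaks muscle protein down. When insulin or insulin-like growth factor activates the kinase AKT, AKT phosphorylates FoxO proteins and holds them outside the nucleus; when that signal fades they enter the nucleus and raise the transcription of ubiquitin ligase and autophagy genes. Fbxo32 (atrogin-1, also MAFbx) and Trim63 (MuRF1) are the ligase genes by which muscle atrophy is usually recognised. Much of this control acts on FoxO proteins and their location, which an RNA array does not read.

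Total RNA was read on 1-colour Agilent arrays, and all values below are log2 of the processed spot signal minus the log2 of the array's own 75th percentile of it, so 0 means a signal equal to that percentile and -1 a signal of one doubling less. The 75th percentile was 492.1 to 923.0 intensity units on the si-lncMGPF arrays and 688.2 to 930.7 on the si-NC arrays. In the headers si-lncMGPF replicate 1 and all si-NC arrays share a scan identifier, called slide 1 here. Replicates 2 and 3 of si-lncMGPF share another, called slide 2. That each scan was a separate slide is inferred from these identifiers. Negative control spots averaged 37.29 and 42.49 intensity units on the slide 2 arrays, against 20.1 to 21.82 on slide 1, and 56.93 and 57.3% of probes were well above background there, against 64.13 to 65.28% on slide 1. Slide and knockdown are thus partly confounded. No probe carried the name lncMGPF, so the level of the siRNA's target was not checked here. All 10 muscle markers looked up (among them Myod1, Myog, Des and Ckm) were well above background on all arrays, with a summed signal of 100 to 126 times the 75th percentile in si-lncMGPF and 118 to 125 times in si-NC. The summed signal of 5 fibroblast markers was 13.0 to 17.8 in si-lncMGPF and 17.4 to 18.8 in si-NC. The corresponding sums were 0.0811 to 0.105 and 0.0760 to 0.0835 for 5 adipocyte markers (Adipoq and Plin1 among them), 1.23 to 1.58 and 1.09 to 1.44 for 5 endothelial and leukocyte markers, and 0.102 to 0.147 and 0.123 to 0.158 for 5 epithelial markers. In these lists 2, 1 and 3 genes were above background on no array, and 1, 3 and 1 on all arrays. The brightest of them was Cd3e, at 375.2 to 781 intensity units. The part of other cell types in the results below was not tested. In bulk RNA, fewer cells of a type and less RNA per cell cannot be told apart.

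The members were compared between si-lncMGPF and si-NC. Of the 14 probes, 10 (for 7 genes) were well above background on all 3 arrays of si-lncMGPF, of si-NC or of both, and these were tested; both probes of Foxo4 and the single probes of Fbxo40 and Klf15 were not. By limma, 0 of the 10 tested probes passed an adjusted p of 0.05 over all 24661 tested probes, where the background was 0.105% of all probes (0.0284% higher and 0.077% lower in si-lncMGPF). At an unadjusted p below 0.05 the count was also 0 of 10, against 15.8% of all tested probes. With 1 probe per gene, 4 of the 7 tested members had a positive log2 change and 3 a negative one, with a median of 0.05, beside 0.02 over all 14265 tested genes. Of all tested genes 45.9% had a negative change. For 8 of the 10 probes the 95% interval of the difference lay within a change of 1.5-fold in either direction. The Foxo3 probe is among these 8, and its change is also the median of the 7 genes. It was well above background on only 1 of 3 si-lncMGPF arrays, so its interval does not bound a change of Foxo3.

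**Figure D1:**
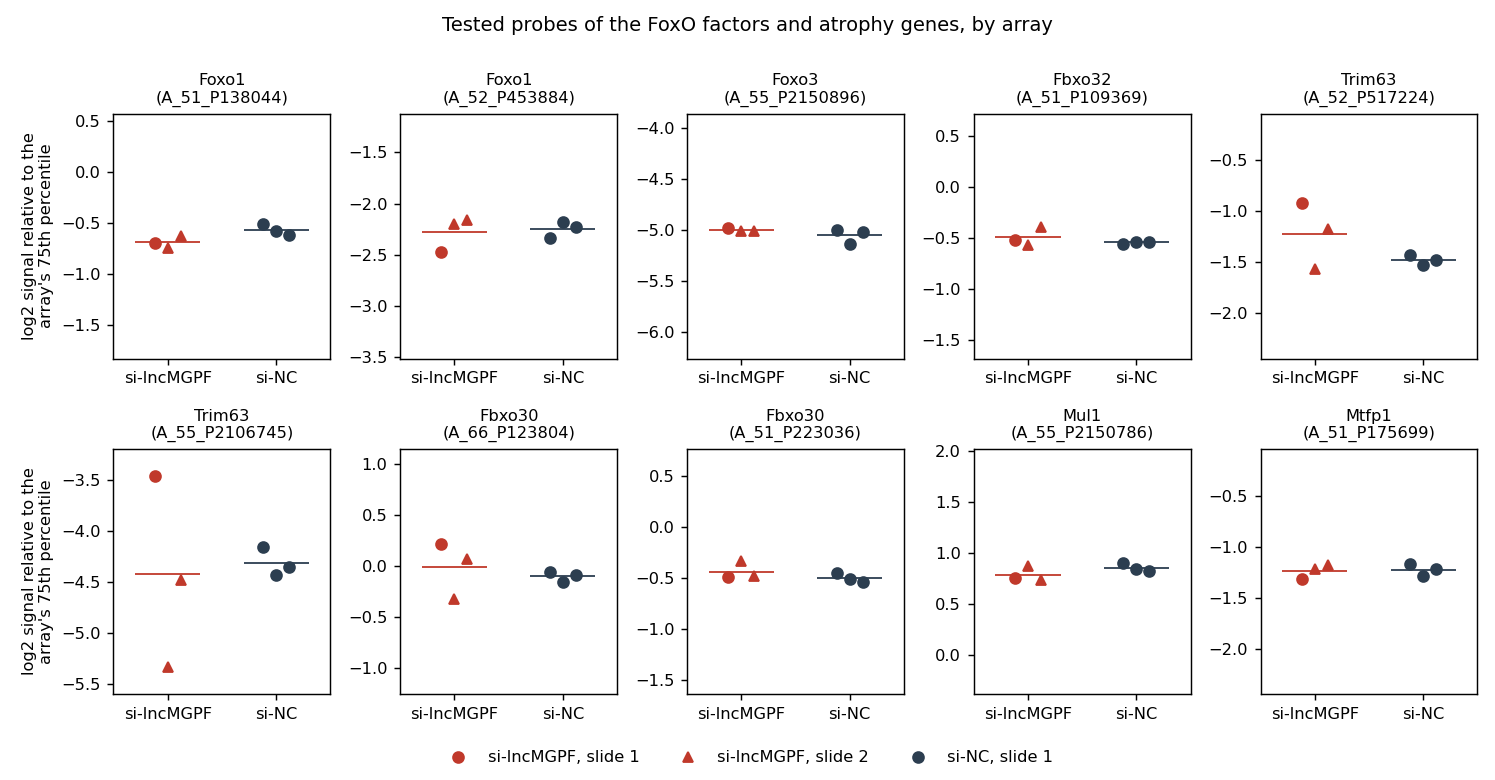
Log2 signal relative to the array's 75th percentile (vertical axes, all of the same span) for the 10 tested probes, with si-lncMGPF on the left and si-NC on the right of each panel. Points are arrays, circles are slide 1 and triangles slide 2, and lines are group means over 3 arrays. The Foxo1 probe A_51_P138044 is the one whose groups do not overlap, and the probes of Trim63 have the widest spread among si-lncMGPF arrays.

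Foxo1, a FoxO factor that is abundant in muscle and rises on fasting, was read by 2 probes. Probe A_51_P138044 had log2 signals of -0.70, -0.75 and -0.63 on si-lncMGPF replicates 1, 2 and 3, against -0.51, -0.58 and -0.62 on si-NC replicates 1, 2 and 3. Every si-lncMGPF array lay below every si-NC array, by a narrow margin between -0.63 and -0.62. The log2 change was -0.12 (SE 0.09, 95% interval -0.32 to 0.08; limma adjusted p = 0.499), and it was -0.13 within slide 1 and -0.12 on slide 2. This was 1 of 10 tested probes without overlap of the groups, where 22.9% of all tested probes had none (13.3% lower and 9.56% higher in si-lncMGPF). The second probe, A_52_P453884, had -2.47, -2.20 and -2.17 in si-lncMGPF and -2.34, -2.18 and -2.23 in si-NC. Here the groups overlapped, with si-lncMGPF replicate 1 the lowest array and replicate 3 the highest. Its log2 change was -0.03 (95% interval -0.30 to 0.24), at -0.22 within slide 1 and 0.07 on slide 2, so the 2 probes did not give 1 pattern.

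Foxo3, the factor best known for driving Fbxo32 and autophagy genes in wasting muscle, had a dim probe, with processed signals of 29.1, 17.9 and 15.2 intensity units in si-lncMGPF and 29.0, 19.6 and 23.3 in si-NC. It was well above background on 1 of 3 si-lncMGPF arrays, replicate 1, and on 3 of 3 si-NC arrays. Relative to each array's 75th percentile the signals were close together, at -4.99, -5.02 and -5.02 in si-lncMGPF and -5.00, -5.14 and -5.02 in si-NC. The log2 change was 0.05 (SE 0.08, 95% interval -0.16 to 0.25; limma adjusted p = 0.796). At a signal this near background, a small change of Foxo3 was not detectable.

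Foxo4, the third FoxO gene looked up, was not well above background on any of the 6 arrays by either probe. Probe A_55_P2150901 read 5.27, 9.02 and 18.4 intensity units in si-lncMGPF, against 8.57, 8.99 and 9.21 in si-NC. Probe A_55_P2113026 read 4.29, 10.8 and 7.12 in si-lncMGPF, against 5.14, 3.14 and 3.72 in si-NC. On the second probe the slide 2 arrays read highest, the slide on which negative control spots were also brighter, and no fold is given.

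**Figure D2:**
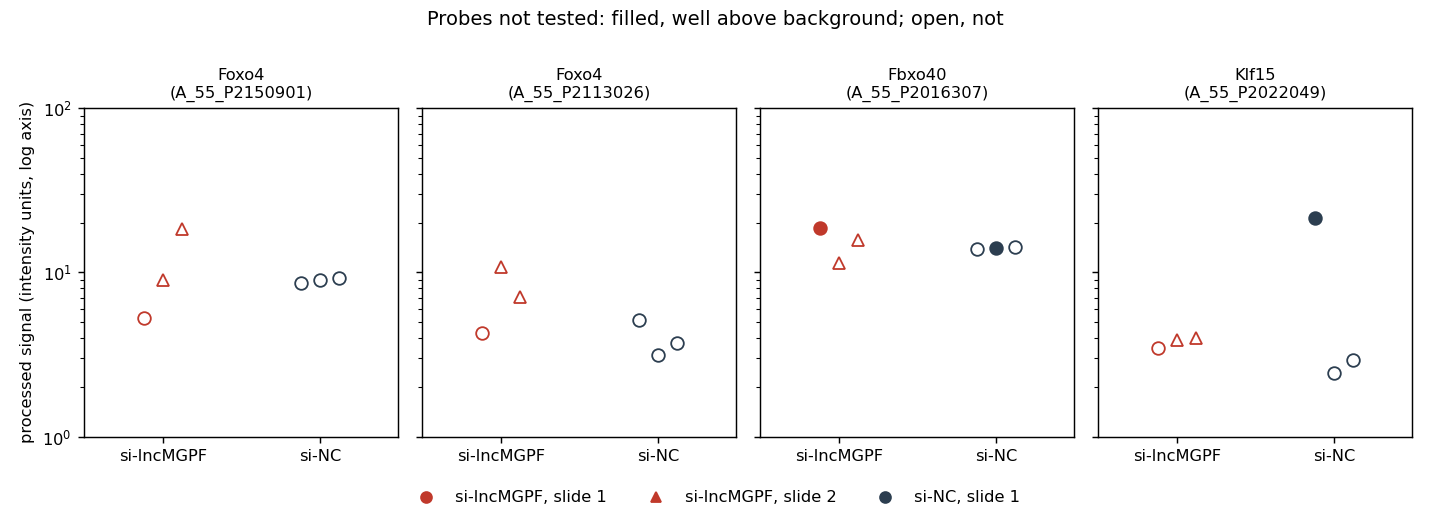
Processed signal in intensity units (log axis) of the 4 probes that were not tested, with si-lncMGPF on the left and si-NC on the right of each panel; filled symbols were well above background, open ones were not, circles are slide 1 and triangles slide 2. Both Foxo4 probes are open on all arrays, Fbxo40 is filled on 1 array of each group, and Klf15 is filled on si-NC replicate 1 at 21.5 units while its other readings lie between 2.43 and 3.98.

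Fbxo32 encodes the F-box subunit atrogin-1, which brings substrates such as Eif3f to the SCF ubiquitin ligase. Its probe is printed 10 times on each array, so its value is the mean of 10 spots. The log2 signals were -0.52, -0.57 and -0.39 on si-lncMGPF replicates 1, 2 and 3, against -0.56, -0.54 and -0.53 on si-NC replicates 1, 2 and 3. The si-NC arrays lay inside the si-lncMGPF range, replicate 3 standing highest. The log2 change was 0.05 (SE 0.09), a fold of 1.03 with a 95% interval of 0.895 to 1.198 (limma adjusted p = 0.791). It was 0.02 within slide 1 and 0.06 on slide 2, and without si-lncMGPF replicate 3 it was -0.001.

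The repeated spots show how finely Fbxo32 was read within an array. Their SD was 0.032 to 0.051 on the log2 scale over the 6 arrays, and processed signals ran from 614.4 to 673.9 units on si-lncMGPF replicate 1 and from 358.2 to 389.9 on si-lncMGPF replicate 3. On si-NC replicate 1 they ran from 597.7 to 682.3 units. The SD between the 3 array means was 0.09 in si-lncMGPF and 0.01 in si-NC.

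**Figure D3:**
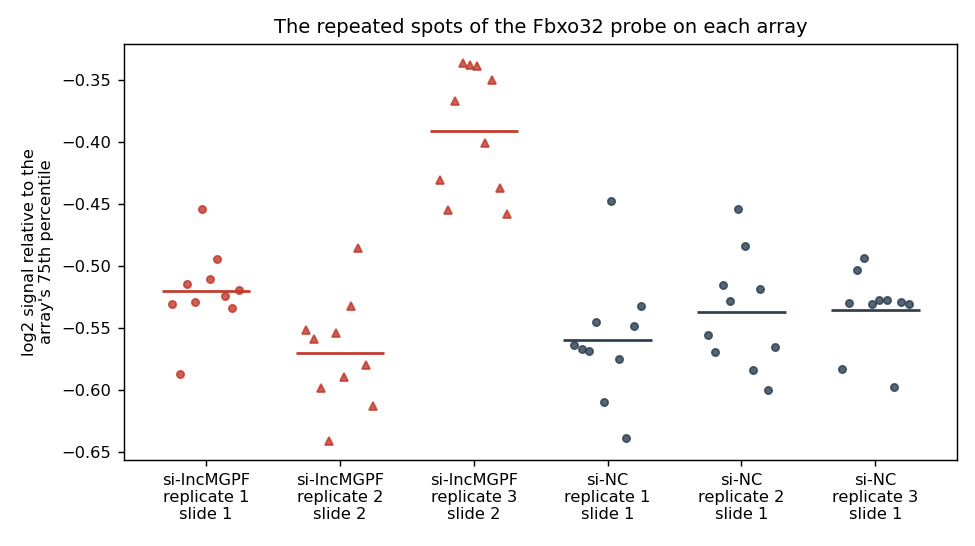
Log2 signal relative to the array's 75th percentile for the 10 spots of the Fbxo32 probe on each array, with si-lncMGPF arrays on the left and si-NC arrays on the right; lines are array means, circles slide 1 and triangles slide 2. The means are -0.52, -0.57 and -0.39 in si-lncMGPF and -0.56, -0.54 and -0.53 in si-NC, so 1 si-lncMGPF array stands above the rest.

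Trim63 encodes MuRF1, a RING-finger ligase of the sarcomere that acts on thick-filament proteins, and its promoter is a known meeting point of FoxO factors and the glucocorticoid receptor. The window from 250 bases before to 50 bases after its start (RefSeq, GRCm38.p6, chr4:134314870-134315169, plus strand) is shown because it was the one member window that held the FoxO motif. Capitals mark the glucocorticoid response element match and, 1 base after it, the FoxO match on the minus strand.

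Trim63: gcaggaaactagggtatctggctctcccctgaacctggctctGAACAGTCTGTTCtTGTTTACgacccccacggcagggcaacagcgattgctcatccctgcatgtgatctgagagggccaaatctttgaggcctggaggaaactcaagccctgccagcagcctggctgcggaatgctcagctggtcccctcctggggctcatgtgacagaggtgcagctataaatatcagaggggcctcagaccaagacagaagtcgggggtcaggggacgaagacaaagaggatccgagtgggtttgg

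The motifs searched on both strands were GTAAACA for FoxO and, for the glucocorticoid receptor, GNACA and TGTNC with any 3 bases between. They lay 188 to 194 and 196 to 208 bases before the start and did not overlap. The FoxO motif was found in 3.65% and the glucocorticoid motif in 0.475% of all 32851 promoter windows of this length, and both together in 5 of them. The glucocorticoid motif was chosen after the Trim63 window was seen, so its match there was fixed beforehand. Its share and the count of both together are therefore no test. Windows were found for 8 of the 10 members (9 windows), and 1 member held either motif. No window was found for Fbxo32 or Foxo4, so their promoters were not searched. A match of letters is a description and does not show binding.

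Trim63 had the least uniform values among the tested members. Probe A_52_P517224 read -0.92, -1.57 and -1.17 on si-lncMGPF replicates 1, 2 and 3, against -1.42, -1.53 and -1.48 on si-NC replicates 1, 2 and 3. In intensity units these were 488.1, 195.9 and 217.9 in si-lncMGPF and 346.5, 238.7 and 270.8 in si-NC. Replicates 1 and 3 of si-lncMGPF lay above all si-NC arrays and replicate 2 lay below them. The log2 change was 0.26 (SE 0.17), a fold of 1.195 with a 95% interval of 0.907 to 1.57 (limma adjusted p = 0.466). The SD was 0.33 among si-lncMGPF arrays and 0.05 among si-NC arrays (n = 3 each).

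The dim second probe of Trim63, A_55_P2106745, read -3.46, -5.33 and -4.48 in si-lncMGPF, against -4.15, -4.43 and -4.35 in si-NC. It was well above background on si-lncMGPF replicate 1 and on all si-NC arrays, but not on the slide 2 arrays, so the order and exact level of si-lncMGPF replicates 2 and 3 cannot be read from it. Its log2 change was -0.11 (SE 0.43, 95% interval -1.14 to 0.92; limma adjusted p = 0.910).

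Slide 1, which holds 1 si-lncMGPF array, and slide 2 gave different values for Trim63. Within slide 1 the change was 0.56 on the first probe and 0.85 on the second, with si-lncMGPF replicate 1 above the whole si-NC range on both. The slide 2 arrays set against the same si-NC arrays gave 0.11 on the first probe, and on the second the measured -0.59 rests on arrays not well above background. With array weights, limma's adjusted p for the first probe was 0.0377 at a log2 change of 0.27, over all alternatives it was 0.0377 to 0.768, and that setting called 41.2% of all probes. Without si-lncMGPF replicate 1 the first probe had 0.11, and without replicate 2 it had 0.43.

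**Figure D4:**
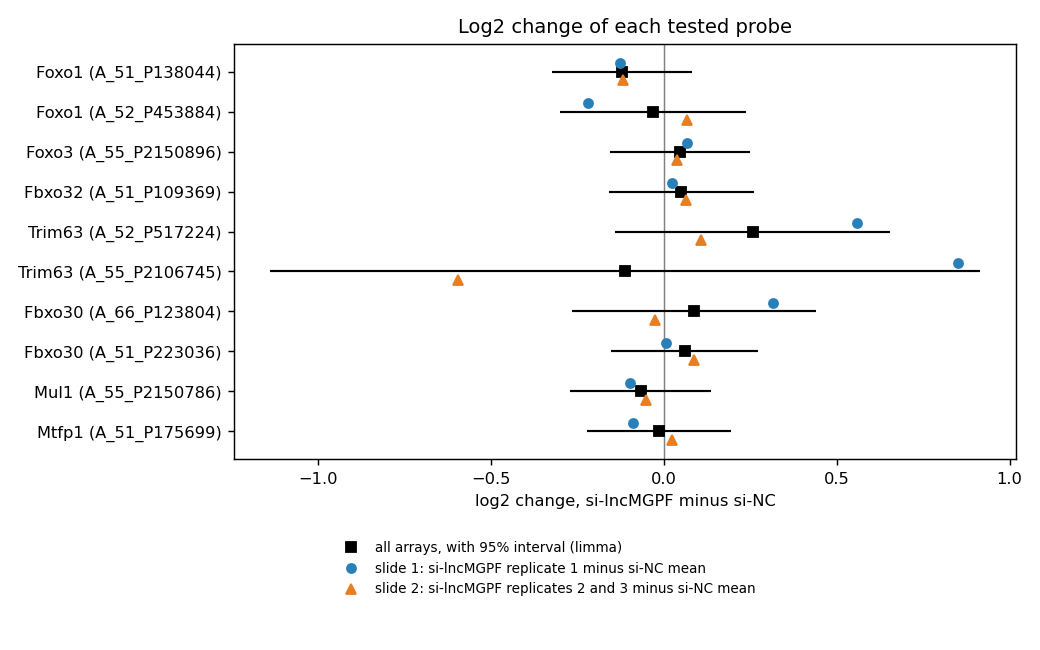
Log2 change of each tested probe, si-lncMGPF minus si-NC. Squares with lines are the limma estimate over all arrays and its 95% interval, circles the change within slide 1 (si-lncMGPF replicate 1) and triangles the change of the slide 2 arrays (si-lncMGPF replicates 2 and 3), both against the si-NC mean. All 10 intervals cross 0, the estimates run from -0.12 for Foxo1 to 0.26 for Trim63, and slide 1 and slide 2 lie farthest apart for the dim Trim63 probe, which was not well above background on slide 2.

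Fbxo30 encodes MUSA1, an F-box protein that BMP signalling holds down in muscle and that rises in atrophy. Probe A_66_P123804 read 0.22, -0.32 and 0.07 in si-lncMGPF, against -0.06, -0.15 and -0.09 in si-NC. Replicate 1 of si-lncMGPF was highest and replicate 2 lowest, on either side of the si-NC arrays. Trim63 had this order too, as did genes outside the members such as Traf6, and its share over all probes was not counted. The log2 change was 0.09 (SE 0.15, 95% interval -0.27 to 0.44; limma adjusted p = 0.783), at 0.32 within slide 1 and -0.03 on slide 2. The other probe, A_51_P223036, read -0.49, -0.33 and -0.48 in si-lncMGPF and -0.45, -0.50 and -0.53 in si-NC. On that probe replicate 2 was the highest si-lncMGPF array, so the order of the first probe was not repeated. Its change was 0.06 (SE 0.09, 95% interval -0.15 to 0.27), at 0.01 within slide 1.

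Fbxo40, an F-box gene of striated muscle whose protein targets the insulin receptor substrate IRS1, was near background. Its signals were 18.7, 11.4 and 15.7 intensity units in si-lncMGPF and 13.9, 14.2 and 14.3 in si-NC, well above background on 1 array of each group. Klf15, a glucocorticoid-induced factor that can raise Fbxo32 and Trim63, read 3.48, 3.85 and 3.98 units in si-lncMGPF, against 21.5, 2.43 and 2.91 in si-NC. It was well above background on si-NC replicate 1 alone. No fold is given for either gene.

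Mul1 encodes a mitochondrial ubiquitin ligase that acts on mitofusin 2 and is raised by FoxO factors in wasting muscle. Its log2 signals were 0.76, 0.87 and 0.74 in si-lncMGPF, against 0.90, 0.85 and 0.83 in si-NC. The groups overlapped, replicate 2 of si-lncMGPF lying among the si-NC arrays. The change was -0.07 (SE 0.09), a fold of 0.955 with a 95% interval of 0.829 to 1.1 (limma adjusted p = 0.711).

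Mtfp1, an inner membrane protein that promotes mitochondrial fission, read -1.31, -1.21 and -1.18 in si-lncMGPF, against -1.17, -1.28 and -1.21 in si-NC. The arrays of both groups were interleaved. The change was -0.01 (SE 0.09), a fold of 0.990 with a 95% interval of 0.858 to 1.14 (limma adjusted p = 0.948).

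The SD was wider in si-lncMGPF than in si-NC for 9 of 10 tested member probes, Foxo3 being the exception, and for 83.9% of all tested probes, so the wider spread was general to these arrays. Within slide 1, si-lncMGPF replicate 1 lay above the si-NC range for 5 member probes and below it for 4, while over all tested probes it lay above for 32.7% and below for 43.3%. Neither count sets the members apart. The median change of the 7 members was 0.02 within slide 1 and 0.02 on slide 2, beside -0.07 and 0.06 for all tested genes.

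Genes with the most similar profile were looked up for Fbxo32 and Trim63 among 12919 other genes above background on all 6 arrays, by the root mean square difference of centred log2 signals over the 6 arrays. Closest to Fbxo32 were Nr2c2ap (0.0189), Fggy (0.0198) and Sfxn4 (0.0203), with log2 changes of 0.03, 0.07 and 0.03. Fbxo32 is nearly flat, and flat genes resemble each other by this measure. Closest to Trim63 were Fbxw9 (0.0309), Trmt1l (0.0327) and Dtx3 (0.0354), with log2 changes of 0.26, 0.21 and 0.27. Like Trim63, all 3 were highest on si-lncMGPF replicate 1, which follows from choosing them by likeness over these same arrays.

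Around the members, 9 lists of pathway genes were described, 209 genes tested in all when each is counted once. In them 1 gene passed the threshold, 14.8% had an unadjusted p below 0.05 and 24.4% showed no overlap of the groups. Over all tested genes these shares were 14.2% and 22.3%, and 0.147% passed the threshold (0.0421% higher and 0.105% lower in si-lncMGPF). The background for the counts of direction below is 45.9% of all tested genes with a negative change. The shares at an unadjusted p below 0.05 and without overlap were thus near the background for the pooled lists. Single lists, described below, differed from it and from each other, and 1 called gene is too few to compare.

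Upstream of FoxO, 0 of 22 tested regulators passed, 12 with a positive and 10 with a negative change and a median of 0.04. Akt1 and Akt2, the kinases that restrain FoxO, had log2 changes of 0.08 (adjusted p = 0.763) and -0.01 (adjusted p = 0.963; 0.03 and 0.08 on 2 other probes) by limma. Sgk1, a related kinase that also phosphorylates FoxO3, had 0.22 (limma adjusted p = 0.320). Foxo6, the remaining FoxO gene, had -0.004 on its brighter probe and -0.66 on another (limma adjusted p of 0.986 and 0.348). The smallest p in the list was that of Prkaa2, a catalytic subunit of AMP-activated kinase, at a limma adjusted p of 0.229. It was well above background on 0 of 3 si-lncMGPF arrays and 3 of 3 si-NC arrays and so was tested only through si-NC, and no fold is given.

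Of 24 tested FoxO target genes of growth arrest, stress and metabolism, 0 passed, 12 with a positive and 12 with a negative change and a median of 0.02. Cdkn1b, the cell cycle inhibitor p27, had -0.14, and Gadd45a, a stress gene that FoxO and ATF4 raise in atrophy, had -0.38 (limma adjusted p of 0.571 and 0.306). For Gadd45a the change was -0.04 within slide 1 and -0.56 on slide 2. Txnip, an inhibitor of thioredoxin, had 0.32, Pdk4, which limits glucose oxidation, 0.04, and Irs2, an insulin receptor substrate, -0.10. Sesn2, a sestrin that restrains mTORC1, had the smallest p of the list, with a log2 change of 0.70 (SE 0.21, limma adjusted p = 0.233). Within slide 1 this was 0.94, and slide 2 gave 0.58. The directions of these named targets were mixed. Groups did not overlap for 7 of the 24 genes, 5 higher and 2 lower in si-lncMGPF. Over all tested genes 9.62% were higher and 12.6% lower without overlap. By limma 6 of the 24 had an unadjusted p below 0.05, against 14.2% of all tested genes.

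Autophagy genes, many of them FoxO3 targets, had 0 of 26 past the threshold, 18 with a positive and 8 with a negative change and a median of 0.14, at 0.02 within slide 1 and 0.12 on slide 2. Map1lc3b and Gabarapl1, coat proteins of the autophagosome, had 0.02 and 0.15. Bnip3, a mitophagy receptor, had 0.36 (limma adjusted p = 0.406), with 0.47 and 0.55 on other probes, and 0.00 within slide 1 against 0.53 on slide 2. Sqstm1, the cargo receptor p62, had 0.11 and the kinase gene Ulk1 0.27. The smallest p was that of Tfeb, a factor for lysosome genes, at -0.29 (limma adjusted p = 0.260).

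Other ubiquitin ligases and adaptors described in muscle had 0 of 29 past the threshold, 16 with a positive and 13 with a negative change and a median of 0.02. Trim54 and Trim55, the MuRF relatives of Trim63, had 0.06 and -0.28 (limma adjusted p of 0.899 and 0.467). Fbxo31, an F-box gene for cyclin D1, had 0.02 on its brighter probe and -0.98 on another, neither past the threshold. Nedd4, a HECT ligase, had 0.23 (limma adjusted p = 0.303) and Traf6, a ligase of inflammatory signalling, 0.19. Fbxw7, an F-box gene for cyclin E and Myc, had the smallest p, at -0.62 (SE 0.09, limma adjusted p = 0.117), with -0.61 within slide 1, -0.62 on slide 2 and -0.31 on a second probe. Its si-lncMGPF arrays all lay below its si-NC arrays. In this list 7 of 29 genes showed no overlap of the groups, 4 lower and 3 higher in si-lncMGPF. Over all tested genes 12.6% were lower and 9.62% higher without overlap.

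In the SCF core and ubiquitin transfer list 0 of 22 passed, 17 with a positive and 5 with a negative change, and the median was 0.10 over all arrays, -0.08 within slide 1 and 0.16 on slide 2. Skp1, Cul1 and Rbx1, the core into which Fbxo32, Fbxo30 and Fbxo40 dock, had 0.17, 0.10 and 0.18 (limma adjusted p of 0.384, 0.815 and 0.590). Their changes were 0.07, 0.52 and -0.16 within slide 1, and 0.22, -0.11 and 0.35 on slide 2. Cul1 and Rbx1 thus changed sign between the slides.

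Among proteasome subunits 0 of 32 passed, and 31 had a positive change, where 45.9% of all tested genes had a negative one. The median was 0.15 over all arrays, 0.02 within slide 1 and 0.23 on slide 2. For 10 of the 32 the groups did not overlap, all higher in si-lncMGPF, where 9.62% of all tested genes were higher without overlap. Psmb1, a subunit of the core particle, had the smallest p, at 0.46 (SE 0.12, limma adjusted p = 0.214). Slide 1 gave 0.38 and slide 2 gave 0.50. All tested genes had a median of -0.07 within slide 1 and 0.06 on slide 2, and the part of the slide in this list's values was not tested.

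**Figure D5:**
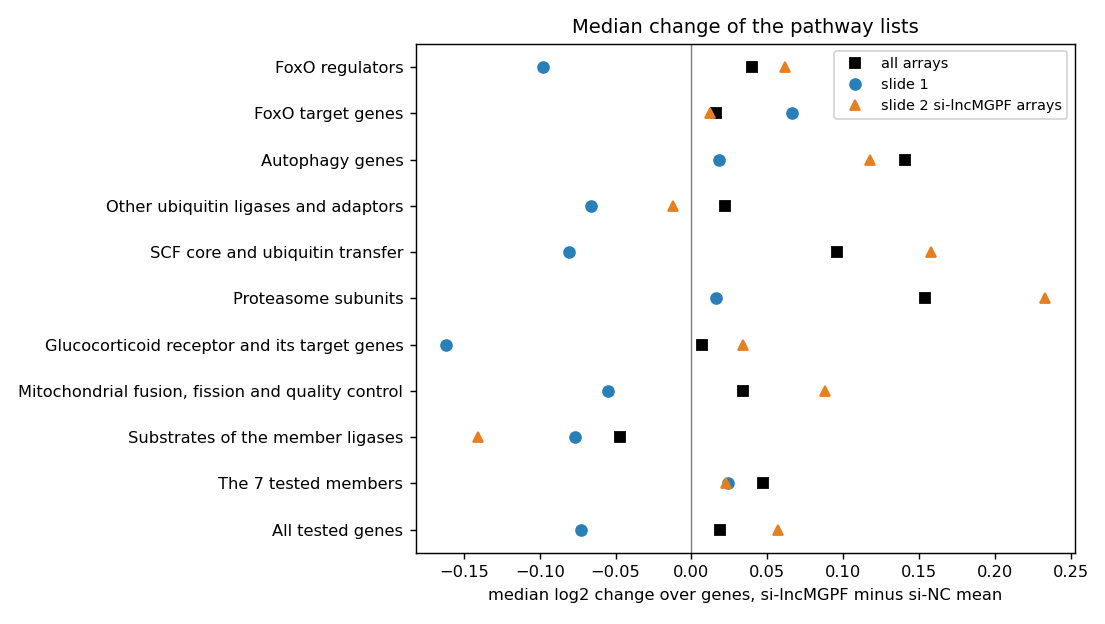
Median log2 change over the tested genes of 9 pathway lists, the 7 tested members and all tested genes, si-lncMGPF minus the si-NC mean. Squares are all arrays, circles slide 1 (si-lncMGPF replicate 1) and triangles slide 2 (si-lncMGPF replicates 2 and 3). The 7 members lie at 0.05, 0.02 and 0.02, and proteasome subunits lie at 0.15 over all arrays and 0.02 within slide 1.

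The glucocorticoid receptor is the other input to Trim63, and Klf15 is glucocorticoid-induced. Of the receptor and its target genes 0 of 18 passed the threshold, 9 with a positive and 9 with a negative change. Nr3c1, the receptor itself, had -0.08 and 0.43 on its 2 probes (limma adjusted p of 0.746 and 0.425). Fkbp5 and Tsc22d3, targets that rise soon after hormone, had -0.17 and -0.19 (limma adjusted p of 0.411 and 0.323), each with si-lncMGPF arrays below all si-NC arrays. In this list 7 of 18 genes showed no overlap of the groups, 5 lower and 2 higher in si-lncMGPF. Over all tested genes 12.6% were lower and 9.62% higher without overlap. The metallothionein gene Mt2 had the smallest p, at -0.84 (SE 0.29, limma adjusted p = 0.264). Slide 1 gave -1.37 and slide 2 gave -0.57.

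Among genes of mitochondrial fusion, fission and quality control, which work beside Mul1 and Mtfp1, 0 of 18 passed. Mfn2, the fusion protein that Mul1 marks for destruction, had 0.09 on its brightest probe, with 0.30 and -0.01 on others. The smallest p was that of Phb2, a prohibitin of the inner membrane, at 0.20 (limma adjusted p = 0.354).

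Known substrates of the member ligases had 1 of 21 past the threshold, 9 with a positive and 12 with a negative change and a median of -0.05, at -0.08 within slide 1 and -0.14 on slide 2. The gene that fell was Myl2, a myosin light chain of thick filaments and MuRF1 substrate, with log2 signals of -3.98, -3.73 and -3.71 in si-lncMGPF against -2.40, -2.17 and -2.31 in si-NC. The groups lay far apart, and the log2 change was -1.51 (SE 0.12, limma adjusted p = 0.0216). Over all probes 0 were called, Myl2 included, without the filter on dim probes and when si-lncMGPF replicate 3 or any si-NC array was left out. For 9 of the 21 the groups did not overlap, 8 of them lower in si-lncMGPF, where 12.6% of all tested genes were lower without overlap. Beside Myl2 these were, named after their values were seen, the myosin heavy chains Myh1 (-0.35), Myh3 (-0.15), Myh4 (-0.60), Myh7 (-0.64) and Myh8 (-0.69), the myosin-binding protein gene Mybpc2 (-0.56) and the titin gene Ttn (-0.38). None of these 7 log2 changes passed the threshold, at limma adjusted p-values of 0.126 to 0.472. Myh1 and Myh8 had -0.09 and -0.25 within slide 1, against -0.48 and -0.91 on slide 2. Myh4 and Myh7 had -0.58 and -0.61 within slide 1, and -0.61 and -0.65 on slide 2. Myh3, Mybpc2 and Ttn had -0.095, -0.54 and -0.50 within slide 1, and -0.18, -0.57 and -0.32 on slide 2. The 1 gene higher without overlap was Eif3f, a translation factor that atrogin-1 marks for destruction, with a log2 change of 0.33 (limma adjusted p = 0.259), at 0.33 within slide 1 and 0.33 on slide 2. Irs1, the Fbxo40 substrate, had 0.08 and -0.25 on its 2 probes. These are RNA levels, while the ligases act on the proteins.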

How the data were processed

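Total RNA of 6 C2C12 samples was labelled with Cy3 and read on 1-colour Agilent arrays, per the labels. The authors deposited scanner output, per the file headers: intensity values from Feature Extraction 11.0.1.1 after subtraction of background and spatial detrending on each array. Their deposited series table repeats these intensities (44397 of 44397 spots equal on each array, no tolerance). Flags of 0 or 1 in the deposited tables, another column type, mark outlier spots and spots well above background.

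Outlier spots were left out (117 to 134 per array). Spots of a probe were averaged as log2 after scaling to the 75th percentile of all non-control spots. This scaling hides a shift of most transcripts in 1 direction. A probe counted as well above background on an array if a share of at least 0.5 of its spots were, and was tested if so on every array of at least 1 group. Accessions without version were matched to a RefSeq table (GRCm38.p6; the array design names mm9), which named 27234 of 39429 probes; it served for names and promoter sequences. A gene with several probes stands for its brightest tested one. Probe sequences were not used here.

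The test was limma 3.58.1 under R 4.3.3 (lmFit and eBayes without covariates), adjusted by Benjamini-Hochberg over 24661 probes; a few probes with an outlier spot were fitted without that array, none of them a member's. The members and lists were chosen with earlier results of these data known. All members were named, with a fixed set of pathway genes, any list gene past the threshold, the gene of smallest p in each list (1 such gene is not reported here), and 3 nearest profiles each for Fbxo32 and Trim63. Precision is limited by the number of arrays. Alternatives were quantile and median scaling, normexp on median spot signals with an offset of 50 (the planned mean signals are not in the tables used here), other filters, trend and robust prior, weights per array, a block for slide or for replicate number, the series table, an average over a gene's tested probes, and each array left out in turn. The glucocorticoid motif was chosen after the Trim63 window was seen. Figures used matplotlib 3.10.9.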

Additional observations from a re-analysis of the deposited data

How the results depend on the processing

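Under 18 alternatives the number of member probes past the threshold stayed at 0 but for array weights, where it was 1 (Trim63, log2 change 0.27, limma adjusted p = 0.0377); array weights ran from 0.125 for si-lncMGPF replicate 1 to 9.385 for si-NC replicate 3 and gave 10149 calls over all probes. A second way to estimate the weights did not converge and is not reported. Over all probes the count was 26 (7 higher, 19 lower). It was 6 with quantile normalization (1 higher, 5 lower), 20 with median centring (3 higher, 17 lower), 8 with normexp (4 higher, 4 lower), 10 with slide as a block, 1 on slide 1 alone and 0 without a filter on dim probes (5277 at an unadjusted p below 0.05). Leaving out 1 array gave 0 to 4105 calls, the highest without si-lncMGPF replicate 1, when slide and group coincide. The members' median log2 change, 0.05, ran from -0.001 (without si-lncMGPF replicate 3) to 0.055 when 1 array was left out, with 0.005 without si-NC replicate 2. The sign was the same under all alternatives run for Foxo1 probe A_51_P138044 (-0.15 to -0.04), Mul1 (-0.11 to -0.04) and Trim63 probe A_52_P517224 (0.11 to 0.56). The other 7 tested probes changed sign under at least 1 alternative or reached 0, none past the threshold; the dim Trim63 probe ran from -0.59 to 0.85, its slide 2 readings not being well above background. The replicate block called 0 probes (4430 at an unadjusted p below 0.05) and 0 members. Correlations of same-numbered deviations were 0.185, 0.318 and -0.058; samples numbered 1 and 2 correlated best with their own number in both groups, those numbered 3 did not. The labels do not say what a number marks, and the numbers were not taken to pair the samples. The group and slide effects rest on 1 si-lncMGPF array where slide is a block, and background signal limits Foxo3, Foxo4, Fbxo40, Klf15 and the dim Trim63 probe. The causes of these shifts were not tested.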
